A study of Homo sapiens with 4 samples.

Results

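RNA from UM-UC-3 cells in which hnRNPK had been silenced was set directly against RNA from the same cells after PTBP1 silencing, to find the genes whose levels separate loss of these RNA-binding proteins. The comparison used 2 of the 4 libraries of the study, and each of the groups named here is 1 library. UM-UC-3 is an established human bladder carcinoma line. The cells received 75 nM siRNA for 48 hours before total RNA was taken and sequenced as 100-base read pairs. The groups were si-hnRNPK, si-PTBP1, control siRNA and si-lncRNA-LBCS, and no other treatment separated them. The control library and the library labelled si-lncRNA-LBCS are shown beside both knockdowns so that a level can be placed, and are not the subject of a test. Of the 24699 genes listed for both knockdowns, 13828 reached 1 scaled CPM (reads of a gene per 1000000 reads of its library, put on a common scale) in at least 1 of them and were compared.

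Heterogeneous nuclear ribonucleoprotein K (hnRNPK) binds single-stranded C-rich RNA and DNA through KH domains. It acts in transcription, splicing, mRNA stability and translation. Polypyrimidine tract-binding protein 1 (PTBP1) binds CU-rich RNA through RNA recognition motifs and is best known for keeping neuronal exons out of mRNAs in cells that are not neurons. Both belong to the hnRNP class and shuttle between nucleus and cytoplasm, and both can act on the same transcripts.

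The labels give 2 siRNAs for each target, and the study states that the si-hnRNPK cells received a mixture. The sense strands follow as the labels spell them, because they define what was silenced and which other transcripts could pair with them. Capitals mark the bases opposite the seed of the guide strand (guide bases 2 to 8, sense bases 12 to 18).
si-hnRNPK siRNA-1: ggguuguagagUGCAUAAatt
si-hnRNPK siRNA-2: gccuccaucuaGAAGAGAutt
si-PTBP1 siRNA-1: gccucaacgucAAGUACAatt
si-PTBP1 siRNA-2: cccucauugacCUGCACAatt

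The 19 paired bases of each siRNA matched their target exactly in the reference transcripts (GENCODE 29, GRCh38). The si-hnRNPK siRNA-1 site lay on the minus strand at chr9:83972869-83972887, in exon 10 of the 17 exons of HNRNPK-202. The siRNA-2 site lay at chr9:83971998-83972016 in exon 11. For PTBP1 the sites were on the plus strand of chromosome 19, at chr19:805080-805098 in exon 8 of 15 and at chr19:810750-810768 in exon 15 of PTBP1-203. All 4 sites fell in coding sequence in every coding transcript that held them. Each HNRNPK site was in 5 of the 6 annotated coding transcripts, and each PTBP1 site in 6 of 12. The HNRNPK sites also matched the processed pseudogenes HNRNPKP1, HNRNPKP2 and HNRNPKP4, so reads of HNRNPK can be shared with near-identical copies.

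Each knockdown lowered its own target and left the other's mRNA closer to the control level. Levels below are scaled CPM in 4 libraries. They come in a fixed order, first the control, then the library labelled si-lncRNA-LBCS, and last the knockdowns, hnRNPK before PTBP1. HNRNPK stood at 781, 811, 202 and 599. Its level in si-hnRNPK was 25.9% of that in the control library, and the ratio of si-hnRNPK to si-PTBP1 was 0.338 (95% counting interval 0.330 to 0.345). PTBP1 stood at 279, 328, 273 and 82.0. It was left at 29.4% of control in si-PTBP1, and its ratio of si-hnRNPK to si-PTBP1 was 3.33 (3.22 to 3.44). Intervals here come from the reads of 1 library a side by the Clopper-Pearson method, cover counting error only, and say nothing of the spread between cultures, for which there is no replicate.

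**Figure D1:**
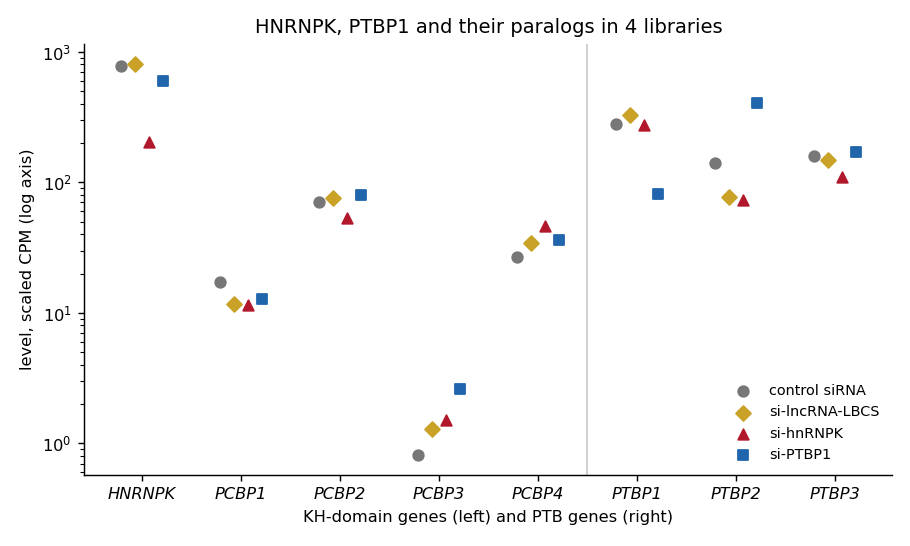
Level in scaled CPM (log axis) of HNRNPK, PTBP1 and their paralogs, 1 point per library and no error bar because there is 1 library per group. HNRNPK was lowest in si-hnRNPK at 202, PTBP1 lowest in si-PTBP1 at 82.0, and PTBP2 highest in si-PTBP1 at 405.

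Among the paralogs PTBP2 separated the knockdowns far more than the others did. PTBP2, the neuronal paralog whose mRNA PTBP1 is known to destine for decay by skipping an exon, stood at 141, 77.7, 73.5 and 405. It was highest in si-PTBP1 and lowest in si-hnRNPK, with the control library between them, and its difference of -2.45 was the most negative of any gene with a symbol at 10 CPM or more (ratio of si-hnRNPK to si-PTBP1 0.182, interval 0.175 to 0.188). A difference is always log2(scaled CPM + 1) in si-hnRNPK minus the same in si-PTBP1, so 1 is a doubling for well expressed genes and less than the true change for low ones. PTBP3, a paralog with overlapping RNA targets, stood at 160, 149, 110 and 170, a difference of -0.62. Among the KH-domain relatives of hnRNPK, PCBP2 stood at 70.2, 75.3, 52.8 and 80.2, PCBP1 at 17.3, 11.7, 11.5 and 12.7, PCBP3 at 0.812, 1.29, 1.51 and 2.62 and PCBP4 at 26.7, 33.98, 46.1 and 36.2. None of these 4 differed by 1 or more, and PCBP4 was the only one higher in si-hnRNPK (0.34).

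At a doubling on this scale, 6.5% of genes separated the knockdowns. The difference was 1 or more for 530 genes (3.83% of those compared) and -1 or less for 369 (2.67%), 899 in all. Protein-coding genes made up 472 of the higher and 327 of the lower ones. These genes are called higher and lower below. The median over all genes was -0.02, and 69.0% of genes differed by less than 0.5. The balance was lopsided at the far end: 82 genes were at least 2 above and 7 at least 2 below, and 27 genes were at least 3 above and 0 at least 3 below. Every called gene had at least 61 reads in the library where it was higher. BACH1 fell just short at 0.9995 while RPS27 just passed at 1.0003.

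Which side held more genes rests on the scale, the pseudocount and the limit. Scaling raised the difference relative to CPM as deposited by 0.24 for well expressed genes and by less for low ones, since 1 is added to each level, and without it 330 genes would be higher and 840 lower. With 0.1 added in place of 1 there would be 753 higher and 793 lower, and with a limit of 1.5-fold 1573 and 1766. The 10 genes with most reads held 19.3% of the reads in si-hnRNPK and 16.7% in si-PTBP1. Reads on listed genes numbered 54301152 in si-hnRNPK and 56064691 in si-PTBP1, so depth was alike. As the libraries are bulk RNA, fewer cells of a kind and less RNA per cell cannot be told apart.

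**Figure D2:**
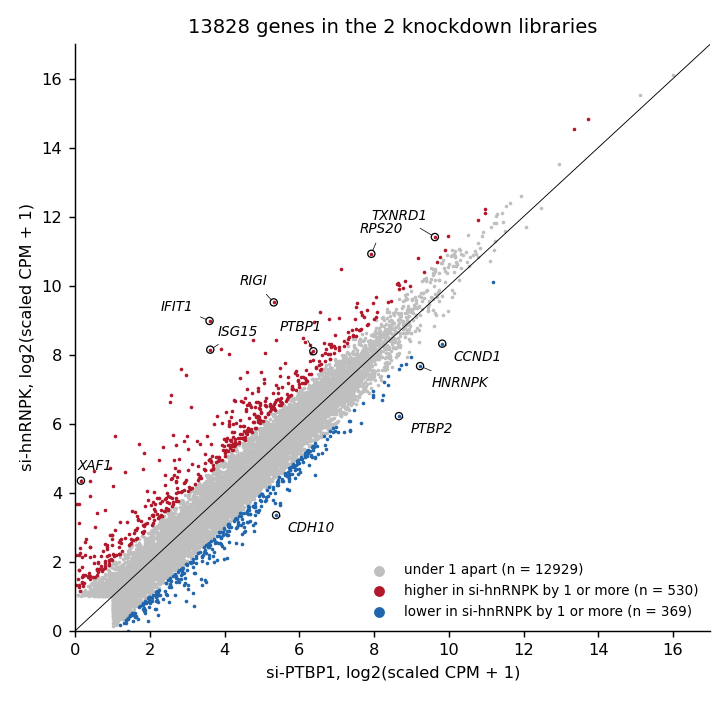
Each point is 1 of 13828 genes, with log2(scaled CPM + 1) in si-PTBP1 on the x axis and in si-hnRNPK on the y axis. Red points are the 530 genes higher in si-hnRNPK by 1 or more, blue points the 369 lower, and the line marks equal levels. The red points reach farther from the line than the blue ones.

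The genes that stood farthest apart were mostly interferon-stimulated genes, the set that cells switch on after sensing foreign nucleic acid or receiving interferon. IFIT1, which binds viral RNA lacking a host cap, stood at 19.5, 19.8, 503 and 11.1, a ratio of si-hnRNPK to si-PTBP1 of 45.3 (42.0 to 49.0). IFIT2, of the same family, stood at 23.9, 6.17, 192 and 6.13. ISG15, a ubiquitin-like modifier, stood at 14.6, 18.4, 282 and 11.3, a ratio of 25.0 (23.2 to 27.1). In these 3 genes si-hnRNPK was far above every other library.

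RIGI, the sensor of short double-stranded RNA also known as RIG-I, stood at 66.9, 38.3, 730 and 38.8, a ratio of 18.8 (18.1 to 19.6). IFI6 stood at 11.2, 26.6, 287 and 14.1. CMPK2, a mitochondrial nucleotide kinase induced with the antiviral protein viperin, stood at 0.276, 0.772, 23.6 and 0.407. XAF1, which antagonises the apoptosis inhibitor XIAP, stood at 0.211, 0.286, 19.4 and 0.114 and rested on 976 reads in si-hnRNPK against 7 in si-PTBP1, a ratio of 170 with a wide interval (82.1 to 424). In each of these 4 genes si-hnRNPK was the highest library, well apart from the other 3.

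Of the 73 interferon-stimulated genes on the list, all of which were compared, 62 were higher (84.9%, against 3.83% of all genes), none was lower, and the remaining 11 had differences above 0. The list's median difference was 2.14, where all genes had -0.02. Relative to the control library its median was 2.10 in si-hnRNPK and 0.01 in si-PTBP1. Of the 62, the control library was nearer si-PTBP1 in 60.

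The list spans sensing, signalling, effectors and antigen display. Of 5 sensors 4 were higher, with a median of 2.47, and DHX58 (0.94) was not. All 5 signalling genes were higher, from IRF9 (1.199) to IRF7 (3.38), which are transcription factors of the pathway. Among 43 effectors 39 were higher, with a median of 2.28. Of 14 antigen-presentation genes 9 were higher, with a lower median of 1.14: HLA-B stood out at 2.97, while the peptide transporter subunit TAP2 differed by only 0.08 and its partner TAP1 by 2.07. Reads of HLA genes can be shared among near-identical copies. Genes named here by role beyond the largest differences were picked after their values were seen.

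Interferon itself was close to the limit of detection. IFNB1, which encodes interferon beta, had 29 reads in si-hnRNPK and 1 each in si-PTBP1 and control, 0.576 CPM in si-hnRNPK and below the 1 CPM needed for comparison. IFNE, which encodes interferon epsilon, had 13, 22, 31 and 45 reads in the order of libraries above, also under 1 CPM, and was not higher in si-hnRNPK than in si-PTBP1. The receptor subunit genes IFNAR1 and IFNAR2 differed by -0.11 and 0.84.

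Interferon acts on its genes through a short promoter element that interferon-activated transcription factors bind. Shown are the 4 genes of the list with the largest differences among those with a RefSeq promoter (250 bases before to 50 after the start, GRCh38.p14) that holds the core of the interferon-stimulated response element, GAAANNGAAA on either strand. Capitals mark the core, which reads TTTC first where it lies on the opposite strand.
IFIT1: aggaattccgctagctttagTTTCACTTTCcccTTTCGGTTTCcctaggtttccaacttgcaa
ISG15: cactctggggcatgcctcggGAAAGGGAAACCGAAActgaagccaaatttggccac
IFIT3: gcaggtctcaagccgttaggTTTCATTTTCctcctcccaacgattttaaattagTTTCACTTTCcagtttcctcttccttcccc
IFI6: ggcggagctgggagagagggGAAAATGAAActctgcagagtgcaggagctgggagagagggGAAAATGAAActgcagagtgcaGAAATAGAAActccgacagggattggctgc

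These stretches lie at chr10:89392487-89392549 and chr1:1013364-1013419 on the plus strand, chr10:89327821-89327904 on the plus strand, and chr1:27672256-27672368 on the minus strand, in the order above. IFIT1, IFIT3 and ISG15 hold 2 cores each, those of ISG15 overlapping, and IFI6 holds 3. RIGI, XAF1, CMPK2 and OAS1 have a promoter in the table whose window does not contain these letters. The core is present in 3.65% of the 27305 promoters of the table. Shares were not compared between the called sets, because the table held a promoter for 374 of the 530 higher and 270 of the 369 lower genes, under the 80% needed for such a comparison.

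Inflammatory ligands lay on the same side. Of 12 cytokine and chemokine genes compared, 9 were higher (75.0%, against 3.83% of all genes) and 1 was lower, with a median of 1.25. CCL2, which attracts monocytes, stood at 68.7, 16.1, 345 and 25.8, a ratio of 13.4 (12.7 to 14.1). CXCL8, the neutrophil chemoattractant interleukin 8, stood at 37.1, 16.6, 159 and 20.4. IL11, a cytokine of the interleukin 6 family, was the exception at 62.5, 56.0, 59.1 and 125, the high library being si-PTBP1. CCL20 (1.93), IL18 (1.52) and CXCL3 (1.501) were the next largest. Markers of blood cells, a list that includes the haemoglobin genes HBB and HBA1, were nearly absent. Of 12 such markers 5 were listed in both knockdowns, with a summed level of 1.14, 0.5001, 3.16 and 0.929 CPM. ITGAM made up nearly all of the sum in si-hnRNPK, at 2.997 CPM.

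For several of the most separated genes the control library was not a flat baseline but lay between the knockdowns. OASL, an antiviral relative of the oligoadenylate synthetases, stood at 9.86, 2.06, 49.2 and 1.11, 2.21 above control in si-hnRNPK and -2.37 from control in si-PTBP1. TRAF1, an adaptor of tumour necrosis factor receptors induced by NF-kappaB, stood at 34.1, 3.46, 114 and 4.90. IFIT3 stood at 23.3, 7.67, 170 and 6.78. In all 3 the library labelled si-lncRNA-LBCS stood nearer to si-PTBP1 than to the control. G0S2, an inhibitor of triglyceride lipolysis that the study took up as a cell cycle gene, behaved likewise at 12.8, 2.76, 39.0 and 4.11. With 1 control library, whether the control was high or si-PTBP1 low cannot be told apart.

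**Figure D3:**
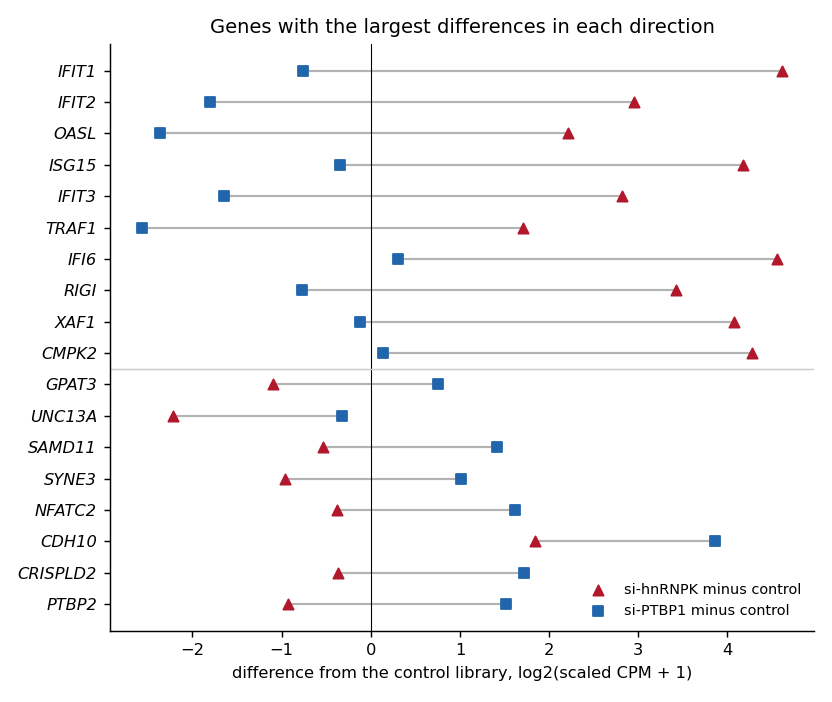
Difference from the control library in log2(scaled CPM + 1) for the 10 genes highest in si-hnRNPK relative to si-PTBP1 (upper rows) and for 8 of the 10 lowest (lower rows), with triangles for si-hnRNPK and squares for si-PTBP1. Among the upper genes the squares of TRAF1 (-2.57), OASL (-2.37), IFIT2 (-1.81) and IFIT3 (-1.64) lie well left of 0, and among the lower genes shown only CDH10 has both symbols right of 0.

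Over all called genes, the position of the control library showed which knockdown was farther from it. Of the 530 higher genes, 389 (73.4%, interval 69.4 to 77.1) had a control level nearer si-PTBP1, so that si-hnRNPK was the library farther from it, and 141 had one nearer si-hnRNPK. Of the 369 lower genes, 226 (61.2%, 56.1 to 66.2) were nearer si-PTBP1. The library labelled si-lncRNA-LBCS put the same shares at 76.6% and 50.7%, so the lean among lower genes was not shared by both reference libraries. Genes are not independent, and these intervals describe the counts alone.

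Proliferation genes were lower in si-hnRNPK, by less than the interferon-stimulated genes were higher. Of 54 G2/M genes 7 were lower (13.0%, against 2.67% of all genes) and none higher, with a median of -0.65 and 4 members above 0. Of 41 S phase genes 6 were lower (14.6%) and none higher, with a median of -0.47. Both knockdowns lay below control in these lists: the G2/M median relative to control was -1.02 in si-hnRNPK and -0.42 in si-PTBP1, and the S phase median -0.72 and -0.34. The libraries therefore differed in degree.

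MKI67, which encodes the proliferation marker Ki-67, stood at 599, 256, 103 and 298. CEP55, needed for the final cut between daughter cells, stood at 248, 252, 63.8 and 198. KIF18B, a motor protein of the spindle, stood at 32.5, 19.03, 7.68 and 27.3. TYMS, thymidylate synthase, stood at 39.03, 25.5, 10.997 and 27.1, and MCM4, a subunit of the replicative helicase, at 435, 359, 147 and 304. In each of these si-hnRNPK was the lowest library. CKAP2L (-1.2001), CBX5 (-1.21), E2F8 (-1.18), CDC45 (-1.10) and UBR7 (-1.03) were the other called members with the largest differences. Among these, CBX5 (249 against 188) and UBR7 (60.2 against 57.7) were above control in si-PTBP1.

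Many G2/M promoters hold the CHR element (TTTGAA or TTCGAA on either strand), at which the DREAM complex represses cell cycle genes. The element is short and occurs in 16.6% of the promoters of the table. The promoters of CEP55 and PTBP2 also hold it, and the promoter window of TYMS does not. PTBP2 is on neither the S phase nor the G2/M list. The element is shown in capitals for 2 of the named genes.
KIF18B: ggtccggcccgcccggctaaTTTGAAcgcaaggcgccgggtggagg
MKI67: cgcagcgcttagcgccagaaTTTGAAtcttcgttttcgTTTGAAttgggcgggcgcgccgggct

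Both stretches are on the minus strand, at chr17:44947746-44947791 and chr10:128126427-128126490. The MKI67 stretch holds the element at 2 places.

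Of 17 genes for cyclins, their kinases and inhibitors, 1 was higher (5.88%, against 3.83% of all genes) and 2 lower (11.8%, against 2.67%). The D-type cyclins and their kinases split, with 1 higher and 1 lower of 5. CCND1, which encodes cyclin D1 and starts the G1 programme, stood at 1184, 681, 318 and 905, a ratio of si-hnRNPK to si-PTBP1 of 0.352 (0.345 to 0.358). CCND2 went the other way at 199, 209, 297 and 134. CCNA2 stood at 192, 202, 80.8 and 93.6, low in both knockdowns and only -0.21 apart. CCNE2 stood at 36.8, 32.3, 16.4 and 23.7, a difference of -0.50. The longest 3′ untranslated region of CCND1 held 2 matches of the si-hnRNPK siRNA-1 seed, while those of CCNA2 and CCNE2 held none. IFIT1, which was higher in si-hnRNPK, held 1. The part of seed pairing in the CCND1 level was not tested. All 5 inhibitor genes tested had differences below 0 but only CDKN2D (-1.01, at 3.53, 4.16, 2.02 and 5.10) was called.

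ERCC1 and ERCC4, which the study also followed, were called neither higher nor lower. ERCC1, a nuclease subunit of excision repair, stood at 149, 124, 104 and 102, a ratio of 1.02 (0.983 to 1.06). Its partner ERCC4 stood at 12.4, 9.53, 4.51 and 9.92 and at -0.99 was just under the limit for a call. GAPDH, often used as a reference gene, differed by 0.60. So within these libraries XAF1, G0S2 and CCND1 separated hnRNPK from PTBP1 silencing by 1 or more, while ERCC1 and CCNA2 differed by 0.21 or less.

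Apoptosis genes gave 7 higher (18.9%, against 3.83% of all genes) and 2 lower (5.41%, against 2.67%) of 37, with a median of 0.28. Besides XAF1, BCL2A1 (an NF-kappaB induced survival protein) stood at 17.4, 6.67, 24.0 and 5.82 and the proapoptotic BBC3, or PUMA, at 5.62, 5.46, 22.3 and 8.77. PMAIP1 (1.30) and the death receptor FAS (1.29) were also higher. BMF (-1.05) and the receptor TNFRSF1A (-1.01) were lower. Of 24 p53 target genes 6 were higher (25.0%) and none lower, with PLK2, a stress-responsive kinase, at 116, 117, 527 and 110 and GADD45A at 48.4, 20.8, 97.4 and 28.7. FAS and BBC3 are among the higher genes of both lists. The median of the p53 list was 0.26, with 11 members below 0, and it was 0.03 in CPM as deposited. Of 57 DNA repair genes LIG1, the replicative DNA ligase, was the only one called, at 130, 108, 54.5 and 112.

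A second kind of separation came from si-PTBP1 departing while si-hnRNPK stayed near the control. RPS20, which encodes a protein of the small ribosomal subunit, showed it most strongly at 2089, 1662, 1938 and 242, a ratio of 7.999 (7.86 to 8.14). It was low in si-PTBP1 alone. Its best alignment to si-PTBP1 siRNA-2 matched 15 of the 19 paired bases, a level reached by 1.55% of all genes compared and by 2.87% of those higher, and its longest 3′ untranslated region held no seed match of any of the 4 siRNAs. PTBP3 and CA12 matched the same siRNA at 16 bases, and stood at 170 and 391 in si-PTBP1 against 160 and 427 in control. Whether the siRNA acted on any of these genes was not tested.

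Other ribosomal protein genes leaned the same way. Of 54, 7 were higher (13.0%, against 3.83% of all genes) and 1 lower (1.85%, against 2.67%), with a median of 0.65 and 51 above 0. Relative to control the list's median was 0.23 in si-hnRNPK and -0.48 in si-PTBP1. RPL3 stood at 1182, 1340, 1778 and 578 and RPL13A at 3493, 3699, 4797 and 2007. RPS16 was the lower one at 107, 36.6, 35.6 and 73.1, a low level for such a gene. Ribosomal protein genes have many processed pseudogenes, so how their reads were assigned is uncertain.

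Host genes of small nucleolar RNAs, whose spliced transcripts share the start-site type of ribosomal protein genes and turn over with translation, were alike in direction. All 13 were above 0 and 4 were higher (30.8%, against 3.83% of all genes). Their median of 0.79 was the third highest of the lists with 5 or more members compared. GAS5 stood at 196, 218, 301 and 113, above control in one knockdown and below it in the other. EPB41L4A-AS1 (1.21), SNHG12 (1.11) and SNHG5 (1.08) followed.

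Metabolic and stress genes added to this second kind. PGK1 and PGAM1, enzymes of lower glycolysis, stood at 1140, 1176, 1085 and 400 and at 666, 758, 541 and 213. Of 22 glycolysis genes 4 were higher (18.2%, against 3.83% of all genes) and none lower, with a median of 0.47. The control library was nearer si-hnRNPK in 2 of these 4, PGK1 and PGAM1. In the others, ALDOC (2.65, 1.71, 5.84 and 0.994) and SLC2A1 (319, 318, 477 and 229), it was nearer si-PTBP1. ASNS, asparagine synthetase and a target of the amino acid response factor ATF4, stood at 71.8, 59.8, 68.2 and 20.5, and SLC7A11, the cystine transporter that guards against ferroptosis, at 31.1, 27.0, 41.05 and 5.48. CHAC1 (1.67), MSMO1 (1.54, the only call among 25 cholesterol synthesis genes), MGLL (1.28), BNIP3 (1.01) and the growth factor FGF1 (2.06) likewise had a control level nearer si-hnRNPK. In all of these si-PTBP1 was the lowest library.

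Members of the same lists could depart in the other library, so a list did not follow 1 pattern. In the unfolded protein and integrated stress response 5 of 24 genes were higher (20.8%, against 3.83% of all genes), with a median of 0.56. Of these, ATF3 stood at 1.71, 2.46, 12.9 and 2.87 and PPP1R15A at 47.7, 47.7, 136 and 55.1, both high in si-hnRNPK. XBP1 (1.35) was also called. Of 18 NRF2 and ferroptosis genes 5 were higher (27.8%), with a median of 0.49. Among them HMOX1, heme oxygenase 1, stood at 47.5, 12.5, 181 and 30.2 and TXNRD1, thioredoxin reductase 1, at 1041, 1082, 2715 and 789. The ferritin heavy chain gene FTH1 (1.37), which also has many pseudogenes, was called too. Hypoxia genes gave 4 higher of 19 (21.1%) with a median of 0.58, led by CA9 (1.96), CA12 (1.43) and NDRG1 (1.13).

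Of 14 AP-1 and immediate early genes 6 were higher in si-hnRNPK, with a median of 0.19 and 4 of them below 0, and the broader list with MYC and ERK output genes gave 7 of 31 (22.6%, against 3.83% of all genes) with a median of 0.11, which turns negative in CPM as deposited. In all 7 the control library was nearer si-PTBP1. JUNB stood at 36.6, 21.3, 129 and 42.3, JUN at 280, 253, 604 and 270 and IER3 at 70.2, 79.4, 261 and 79.0. The ERK phosphatase gene DUSP6 differed by 1.31. None of the 7 MYC network genes was called.

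Genes of the cytoskeleton and its transcription followed in part. CALD1, which encodes the actin-binding caldesmon, stood at 73.3, 90.6, 342 and 40.3, a ratio of 8.48 (8.13 to 8.85). ACTA2, smooth muscle actin, was above control in both knockdowns at 1.54, 1.54, 26.1 and 8.80. With CNN1 (1.31) these made 3 higher of 25 actin genes, whose median was 0.20. CCN2 and CCN1, targets of the YAP-TEAD factors, stood at 19.4, 18.004, 93.0 and 23.0 and at 47.0, 34.9, 139 and 40.5. They were the higher ones of 20 (10.0%, against 3.83% of all genes), with ARHGEF17 (-1.04) lower (5.0%, against 2.67%).

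Surface, matrix and growth factor genes were mixed. The tight junction gene CLDN1 stood at 4.08, 1.46, 24.9 and 2.51, and TGFBI differed by 1.30. They were the higher genes of 18 in epithelial-mesenchymal transition (11.1%, against 3.83% of all genes), whose median was -0.08. Matrix genes gave 4 higher (13.3%) and 2 lower (6.67%) of 30, against 3.83% and 2.67% of all genes. MMP1, a collagenase, was high in si-hnRNPK at 7.60, 3.83, 37.2 and 7.14. MMP9 stood at 50.2, 5.27, 12.2 and 4.46, so that the control library was above every other. COL7A1, the anchoring fibril collagen, was low in si-hnRNPK at 6.78, 6.14, 1.53 and 9.47, and COL1A1 was seen above 1 CPM in si-PTBP1 alone (2.05). COL4A2 (1.22) and COL4A1 (1.18) were higher. HBEGF, a ligand of the epidermal growth factor receptor, stood at 68.8, 50.9, 193 and 43.8. With FGF1 it made 2 higher of 22 growth factor genes (9.09%, against 3.83% of all genes), of which the 11 receptors gave none.

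Among the genes lower in si-hnRNPK were CDH10 and UNC13A, both best known from neurons. CDH10, a cadherin of neural tissue, stood at 1.85, 9.40, 9.21 and 40.6, above control in 3 libraries and most in si-PTBP1. UNC13A, which primes synaptic vesicles, separated for the opposite reason at 18.8, 4.36, 3.26 and 14.9, low in si-hnRNPK, as it was with si-lncRNA-LBCS. Of 22 neuronal and REST complex genes compared 4 were lower (18.2%, against 2.67% of all genes) and none higher, with a median of -0.51. UNC13A, RCOR2 (-1.39), STMN3 (-1.12) and VGF (-1.01) were the called ones, and in 3 of these 4 the control library was nearer si-PTBP1.

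The other genes shown with the most negative differences were below control in si-hnRNPK and above it in si-PTBP1. CRISPLD2, a secreted protein gene, stood at 2.44, 5.19, 1.67 and 10.3, and NFATC2, a calcium-regulated transcription factor, at 2.62, 5.36, 1.79 and 10.1. SAMD11 stood at 5.26, 6.33, 3.31 and 15.7. GPAT3, which starts triglyceride synthesis, stood at 25.5, 35.6, 11.4 and 43.9. SYNE3, which ties the nucleus to the cytoskeleton, stood at 10.1, 13.2, 4.68 and 21.3. For PTBP2, SYNE3, THRA, MPC1 and GPAT3 the control library lay clearly between the knockdowns, at least 0.76 from each. THRA, a thyroid hormone receptor gene, stood at 12.1, 13.3, 6.35 and 22.2, and MPC1, the mitochondrial pyruvate carrier, at 10.8, 16.5, 5.92 and 21.1.

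H19, an imprinted long noncoding RNA, stood at 2.14, 4.27, 2.98 and 12.2. It was the only one called of 11 cancer-associated lncRNAs (9.09% lower, against 2.67% of all genes). Of 11 ID, BMP and TGF-beta feedback genes SMAD7 (-1.19) and ID4 (-1.03) were lower (18.2%). In si-PTBP1 both were above control, SMAD7 at 13.9 against 8.12 and ID4 at 4.84 against 1.98.

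Splicing factor genes were counted by family, beside 3.83% of all genes higher and 2.67% lower. Of 15 partners and relatives of PTBP1 none was called. No SR protein gene of 12 was called, and the ones with the highest level in either knockdown, SRSF2 and SRSF1, differed by 0.27 and 0.21. Of 18 other hnRNP genes only HNRNPD (5.56% of them), which encodes the mRNA decay factor AUF1, was called, at 58.9, 37.9, 24.4 and 52.8. Of 24 genes with exons known to be under PTBP1 control, PTBP2 and GABBR1 were lower and FAS was higher. GABBR1, a GABA receptor gene, stood at 10.4, 6.76, 7.60 and 19.6. These values are gene totals and do not show exon inclusion. The medians of the SR list (0.06) and the PTBP1 exon list (0.22) change sign in CPM as deposited.

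**Figure D4:**
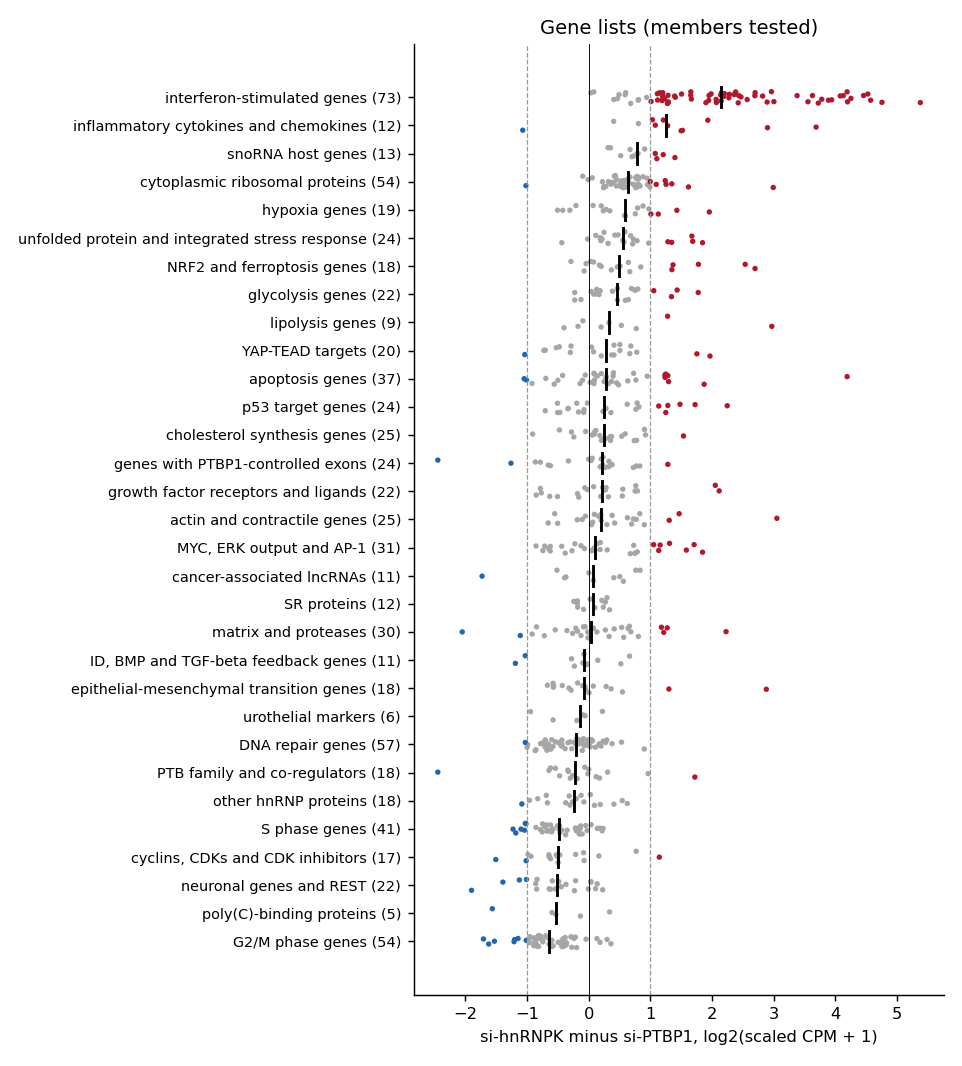
Each point is 1 gene, placed by log2(scaled CPM + 1) in si-hnRNPK minus si-PTBP1 and grouped by list, with the number of members compared in brackets. Black bars are list medians, dashed lines mark -1 and 1, and the vertical jitter has no meaning. Of the lists plotted, which are those with 5 or more members compared, the interferon-stimulated genes have the highest median (2.14) and the G2/M genes the lowest (-0.65).

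Markers of the urothelium did not separate the knockdowns by 1 or more. KRT18, an epithelial keratin, stood at 121, 116, 81.0 and 84.3, and CD44, a basal urothelial and stem cell marker, at 494, 305, 243 and 467 (-0.94). No urothelial marker of the 6 compared was called, beside 6.5% of all genes. The uroplakin genes UPK1A, UPK1B and UPK2, which define the urothelial surface, were under 1 CPM in every library, with UPK1A at 0 in si-hnRNPK, and KRT5 and GATA3 were also under 1 CPM. Fibroblast and endothelial markers summed to 4.19, 3.84, 6.05 and 8.98 CPM, of which PDGFRA was the largest part. Of 9 lipolysis genes G0S2 and MGLL were higher (22.2%, against 3.83% of all genes) and none was lower. The median of that list was 0.33, and 0.10 in CPM as deposited.

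Properties of the transcripts moved with the difference. Genes were put in 10 classes of equal size by the length of their longest transcript. The median difference went from 0.06 in the class of the shortest to -0.20 in that of the longest, where 6.84% of genes were lower and 2.38% higher. Higher genes had a median longest transcript of 3084 bases and lower genes 4705.5, against 3519 over all. Relative to control, the longest class had a median of -0.11 in si-hnRNPK and 0.06 in si-PTBP1. By GC content the class medians stayed between -0.04 and 0.02, while the share of lower genes went from 1.86% in the class of lowest GC to 3.72% in that of highest, with 3.27% higher in both. The median GC content of the longest transcript was 51.2% for lower genes, against 47.8% over all genes and 47.8% for higher ones. The part that length or GC content has in any one gene's difference was not tested. With the median of its length class taken off each gene, 521 genes were higher and 317 lower.

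**Figure D5:**
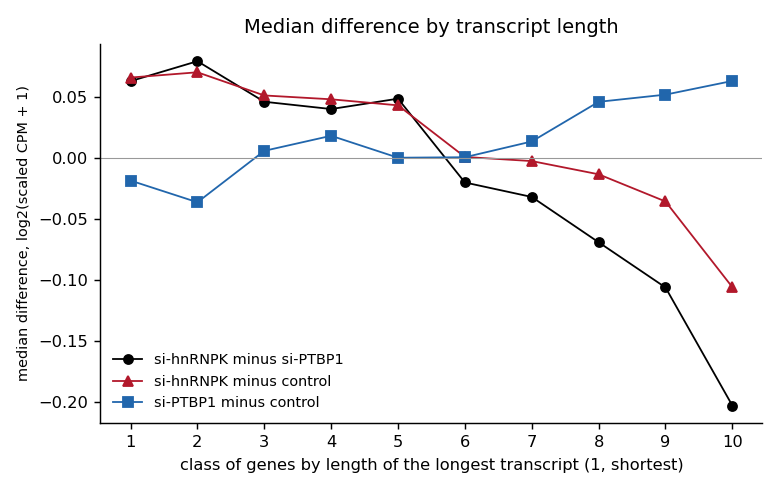
Median difference in log2(scaled CPM + 1), on the y axis, for 10 equal classes of genes ordered by the length of the longest annotated transcript, on the x axis. The black line (si-hnRNPK minus si-PTBP1) goes from 0.06 in the shortest class to -0.20 in the longest, the red line is si-hnRNPK and the blue line si-PTBP1, each minus control.

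Seed matches of the siRNAs were not evenly spread. The letters opposite the si-hnRNPK siRNA-1 seed, TGCATAA, were in the longest 3′ untranslated region of 11.5% of genes compared, 16.8% (12.9 to 21.3) of lower genes and 7.89% (5.62 to 10.7) of higher ones. For siRNA-2 (GAAGAGA) the shares were 23.1%, 28.7% and 18.98%. Lower genes also had longer untranslated regions, with a median of 2213 bases against 1658 over all and 1357 for higher genes. Shares of lower and of all genes were then taken in 3 equal groups by the length of this region. For siRNA-1 they were 7.59% (2.84 to 15.8) and 2.72% in the shortest. They were 6.60% and 8.28% in the middle and 29.6% (22.2 to 37.8) and 23.6% in the longest. For siRNA-2 they were 12.7% (6.24 to 22.05) and 7.34% in the shortest. They were 16.98% (10.4 to 25.5) and 20.01% in the middle and 46.5% (38.1 to 55.03) and 41.965% in the longest. Each of these siRNA-2 intervals covered the share of all genes.

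For si-PTBP1 siRNA-2 (CTGCACA) the share was 21.5% (17.9 to 25.5) of higher genes, those with less mRNA in si-PTBP1, and 17.6% of all. In the 3 groups by length it was 12.7% (8.23 to 18.5) against 5.33% in the shortest, 20.6% (14.9 to 27.2) against 15.4% in the middle and 38.0% (28.8 to 47.8) against 32.04% in the longest. The counting interval lay above the share of all genes in the shortest group only. For si-PTBP1 siRNA-1 (AAGTACA) the shares were 14.1% of higher genes and 14.8% of all. By length they were 4.97% (2.30 to 9.23) against 3.66% in the shortest group and 13.3% (8.73 to 19.2) against 11.8% in the middle. In the longest they were 30.6% (22.1 to 40.2) against 28.9%. Each of these siRNA-1 intervals covered the share of all genes. The part of seed pairing in any difference was not tested.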

How the data were processed

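Total RNA of UM-UC-3 cells was sequenced for 4 siRNA groups with 1 library each. The authors deposited CPM per gene, as the file headers and values show. The submitters' processing notes name hg19, and the aligner and counter are not given in the sources used here. Every value was a whole number of reads within 0.01 (100% of values), so reads were recovered, and genes with a placeholder for no reads were set to 0. Libraries held 54301152 to 70232674 reads. A gene listed in only 1 knockdown was left out (1020 in si-hnRNPK, of which 2 reached 1 CPM, and 1448 in si-PTBP1, of which 1 did).

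Median-of-ratios factors, by which CPM were divided, rested on 12362 genes that reached 1 CPM in each library. The difference was taken on the log2(scaled CPM + 1) scale for genes at 1 scaled CPM or more in either knockdown and called at 1 or -1. A pseudocount of 1 understates the change of low genes. With 1 library a side there is no test between conditions. An exact binomial test with Benjamini-Hochberg adjustment on the recovered reads speaks of these libraries only, and at q of 0.05 it passed 10663 genes, 5181 higher and 5482 lower. Ratios carry 95% Clopper-Pearson intervals. The steps were tested on simulated counts.

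Named genes were the targets and paralogs, the 10 largest differences in each direction at 10 CPM or more, up to 5 called members of each of 34 lists per direction (for lists with none, the 2 highest), the genes the study took up, and the 5 per direction with the control library farthest between. Some genes that this rule names are not reported here. The members, lists and tests were chosen with earlier results of these data known. No mitochondrial genome gene was listed. Gene symbols came for 13423 of 13828 genes. Sites, lengths and 3′ untranslated regions were read from GENCODE 29 (GRCh38) and promoters from RefSeq (GRCh38.p14), matched by symbol. Python 3.11.15, pandas 2.3.3, scipy 1.17.1, and for the alternative TMM factors R 4.3.3 with edgeR 4.0.16 were used.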

Additional observations from a re-analysis of the deposited data

How the results depend on the processing

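No paired analysis was possible because each group has 1 library, and no library could be left out for the same reason. The counts of 530 higher and 369 lower genes depended most on scale and limit. CPM as deposited gave 330 and 840, a 1.5-fold limit 1573 and 1766, and a pseudocount of 0.1 753 and 793, so that under these 3 more genes were lower than higher. A minimum of 5 CPM, TMM factors, factors from both knockdowns alone and the length correction kept both counts within 1.5 times. The length correction was chosen after seeing the data, as were all alternatives for the control position and the seeds. Dropping the minimum could not change the counts, because with 1 added a difference of 1 already needs 1 CPM in the higher library. Adding the binomial test changed neither count, but it passed 10663 of 13828 genes and so was a weak check. HNRNPK differed by -1.80 in CPM as deposited, -1.49 with TMM and -1.61 with the length correction, and PTBP1 by 1.49 and 1.79 under the first 2. The interferon-stimulated median was 2.18 with the smaller pseudocount, 1.91 in CPM as deposited, 2.20 with TMM and 2.09 with the length correction. In the same order the S phase median was -0.48, -0.71, -0.41 and -0.48 and the G2/M median -0.67, -0.88, -0.58 and -0.69. The share of lower genes with a control level nearer si-PTBP1 was 55.7% with TMM, and at 1.5-fold the shares were 69.3% of higher and 67.8% of lower genes. In CPM as deposited 6 list medians changed sign: SR proteins -0.17, PTBP1 exons -0.022, matrix -0.19, growth factors -0.0084, MYC, ERK and AP-1 -0.10 and lncRNAs -0.16. CPM as deposited moves differences by up to the factor between the libraries, and the cause of other shifts was not tested. The promoter comparison was void, since too few genes had a promoter.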
